A study of Mus musculus with 419 samples.

Results

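Cirbp and Rbm3 encode the cold-inducible RNA-binding proteins, and they were followed here through 19 tissues of mice short of energy and of mice with sufficient energy. They are 2 of the 55487 genes in the deposited count table and were found there by symbol. Both were chosen on measured values: Cirbp had risen in most female tissues when Deficient mice were set against Control mice, and Rbm3 was taken with it as the other cold-inducible gene of the kind. The difference between Deficient and Control is therefore given as a description, and tests are given for the time of day and for how the difference changed with it.

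CIRBP and RBM3 are small RNA-binding proteins, each with an RNA recognition motif followed by a glycine-rich tail. Mild cooling of cells and tissues raises both, warming lowers them, and the opposite behaviour is known for the heat-inducible chaperone genes. In mice, the daily rhythm of body temperature imposes a daily rhythm on Cirbp and Rbm3 RNA in peripheral organs, and CIRBP is known to bind transcripts of the circadian gene Clock. Temperature-dependent splicing by the CLK kinases and SR proteins is a known part of this control.

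The study surveyed organs of CBA/CaJ mice, an inbred strain, as a model of REDs, the syndrome of low energy availability known as relative energy deficiency in sport. Deficient mice are the energy-deficient group and Control mice the energy-sufficient one. Each treatment was sampled at ZT17 and ZT05, where zeitgeber time counts hours from lights on. Bulk poly(A) RNA was sequenced in 419 libraries from 36 mice, with 3 libraries in 139 of the 140 groups of tissue, sex, treatment and time, and 2 in male Control tendon of the tibialis anterior at ZT05.

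The labels give no genotype, age, diet or housing temperature. Females gave 18 tissues and males 17, and the 12 females gave all female libraries, so the tissues of a mouse are not independent. Males came from 2 cohorts of 12 mice, told apart here by the animal numbers in the labels: a first cohort numbered with the females and a second cohort numbered above them. In 7 tissues all males were of the second cohort, and in 5 tissues the males spanned both cohorts. Library totals ran from 5777450 to 53598697 counts. In 58 libraries, all of first-cohort males, mitochondrially encoded and rRNA-like genes took more than 50% of the counts, which left as few as 332749 counts for other genes. Of 38 pairs of a tissue and a defining marker gene, 31 were higher in the labelled tissue than in all tissues with other markers. The fast muscles shared their markers, as did the tendons, so tissues within these sets were not told apart. The 7 exceptions concerned the ovary marker Amh, fast-muscle markers that were higher in gastrocnemius tendon, and the tendon marker Tnmd, so the tendon libraries also held muscle RNA.

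Cirbp (ENSMUSG00000045193) is a protein-coding gene on the forward strand of chromosome 10, from 80165985 to 80172786 in GRCm38. Rbm3 (ENSMUSG00000031167) lies on the reverse strand of chromosome X, from 8138975 to 8145880. An antisense gene, Rbm3os (ENSMUSG00000055188), overlaps Rbm3 by 452 bases, and whether the counting used strand is not given in the sources used here, so reads in the overlap cannot be told apart. Over all libraries together Rbm3os held 0.257% of the number of counts that Rbm3 held, and at most 25% in 1 library. The processed pseudogene Rbm3-ps (ENSMUSG00000099875, chromosome 1) held 0.29%, and at most 1.34% in 1 library. Over all libraries Cirbp collected 505090 counts and Rbm3 collected 873201, with 3 to 8263 and 2 to 10718 counts in a single library.

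The Cirbp promoter is shown because a short element in it has been reported to carry its response to mild cold. The 250 bases before the annotated start of transcription (RefSeq, GRCm38.p6, forward strand, chr10:80167589-80167838) read as follows, with the 8 letters of that mild-cold responsive element in capitals.
Cirbp promoter: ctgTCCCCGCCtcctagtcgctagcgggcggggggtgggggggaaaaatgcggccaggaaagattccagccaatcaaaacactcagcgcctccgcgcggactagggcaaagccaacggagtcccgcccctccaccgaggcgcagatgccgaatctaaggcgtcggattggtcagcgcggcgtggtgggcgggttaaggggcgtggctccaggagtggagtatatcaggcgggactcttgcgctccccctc
Searched on both strands, TCCCCGCC occurred once, 247 bases upstream of the start, and in 4.64% of 32851 promoter windows of this length. The GC box letters GGGCGG, which the transcription factor SP1 binds, occurred 3 times and were present in 32.7% of windows. The E-box CACGTG (6.02% of windows), the heat shock element core GAANNTTC (6.69%) and the cAMP response element TGACGTCA (1.55%) were not in these letters. A second annotated Cirbp start had 4 GC boxes in its window and none of the other 4 motifs. The matches are descriptions of the letters and were not tied to the values that follow.

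The first comparison asked how the genes differed between the sampling times within each treatment. Values are CPM, counts scaled to a common library size within the tissue, and a gene is called where edgeR's quasi-likelihood test gave a Benjamini-Hochberg adjusted p under 0.05 over all genes of that tissue. In Control mice Cirbp fell at ZT17 in 8 of 19 tissues and rose in 0, with a median log2 fold change of -0.67 (ZT17 over ZT05) over the 19 tissues. Of all gene and tissue pairs, 2.66% were called lower and 2.6% higher in this comparison. Among the 11042 genes tested in all 19 tissues, 12 (0.109%) were called lower in 8 or more.

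Liver showed the largest called fall in Control mice. Hepatic Cirbp was at 1.78, 1.43 and 2.06 CPM in Control females at ZT17, against 6.45, 8.40 and 7.68 CPM at ZT05. In Control males it was at 1.66, 2.84 and 4.50 CPM at ZT17, against 6.97, 5.82 and 5.39 CPM at ZT05. The times did not overlap in either sex, and the fitted log2 fold change was -1.54 ± 0.31 (SE; edgeR adjusted p = 0.00195). The male liver libraries rest on 3 to 9 Cirbp counts at ZT17 and 11 to 28 at ZT05, because 85.4% to 95.3% of their counts were mitochondrial or rRNA-like.

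Kidney gave the same picture from deeper libraries. Control females had 14.5, 14.2 and 15.4 CPM of Cirbp at ZT17, against 40.6, 45.1 and 43.8 CPM at ZT05. Control males had 30.3, 17.7 and 25.1 CPM at ZT17, against 52.8, 48.8 and 61.9 CPM at ZT05. All ZT17 kidneys lay below all ZT05 kidneys of the same sex (log2 -1.36 ± 0.20, edgeR adjusted p = 0.00016).

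In lung the fall was carried by the females. Control females had 27.3, 29.7 and 26.7 CPM at ZT17, against 72.6, 89.8 and 87.5 CPM at ZT05. Control males had 43.5, 60.6 and 74.2 CPM at ZT17, against 79.0, 72.9 and 69.2 CPM at ZT05, so that 1 of the 3 ZT17 males stood within the ZT05 range. The fit over both sexes gave -0.95 ± 0.17 (edgeR adjusted p = 0.00211), and males fitted alone gave -0.33 (adjusted p = 0.412). Of 5 leukocyte markers tested in the lung of Control mice, Ptprc (-1.39) and Cd3e (-1.77) also fell at ZT17 and 0 rose. Their list summed to 105 to 297 CPM at ZT17 and 116 to 405 CPM at ZT05 in Control lung, with every marker above 0 in every lung library. The part of leukocytes in the lung values was not tested, and in bulk tissue fewer cells of a type and less RNA per cell cannot be told apart.

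The other 5 called tissues were adrenal gland (-1.05 ± 0.23), heart (-0.84 ± 0.21), tibialis anterior (-0.57 ± 0.11), soleus (-0.37 ± 0.09) and extensor digitorum longus (-0.35 ± 0.11), with edgeR adjusted p between 0.00127 and 0.0421. The 3 limb muscles had small differences with small SEs. In extensor digitorum longus the Control males overlapped, at 35.2 to 42.7 CPM at ZT17 and 40.1 to 50.9 CPM at ZT05. In soleus, a slow postural muscle, Control females had 41.1, 38.2 and 41.9 CPM at ZT17, against 48.6, 58.1 and 45.9 CPM at ZT05, and Control males had 49.1, 52.3 and 51.1 CPM, against 65.4, 64.6 and 72.0 CPM. No library of either sex overlapped between the times.

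**Figure D1:**
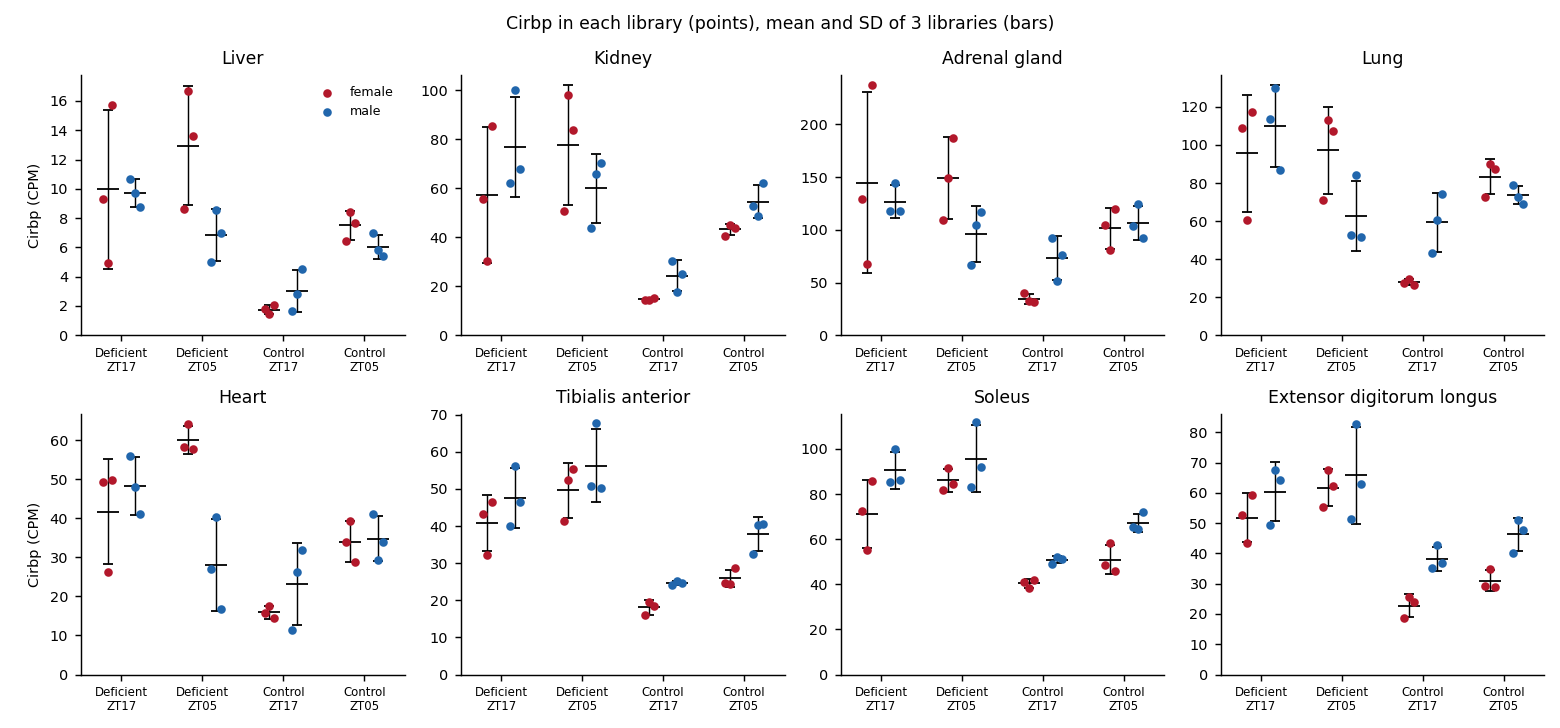
Cirbp in the 8 tissues where it was called lower at ZT17 in Control mice. The y axes are CPM on linear scales, each point is a library of a female (red) or a male (blue), and bars are the mean and SD of 3 libraries. Among females the Control ZT17 libraries sit lowest in each panel, between 14.2 and 15.4 CPM in kidney. In males of lung, heart, adrenal gland and extensor digitorum longus they overlap other groups.

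Uterus (-1.40 ± 0.34) and ovary (-1.33 ± 0.25), with 12 libraries each, had fitted falls close to that of kidney in Control females. They did not pass the adjusted threshold (edgeR adjusted p = 0.602 and 0.225), and the reason was not tested. Ovarian Cirbp was at 55.7, 48.8 and 43.2 CPM at ZT17 in Control mice, against 123, 130 and 118 CPM at ZT05, with no overlap. At the other end, testis had 56.9, 78.4 and 73.6 CPM in Control mice at ZT17, against 68.5, 74.9 and 75.7 CPM at ZT05. The difference there was -0.07 ± 0.11, and the tendons of the extensor digitorum longus (0.06 ± 0.14) and tibialis anterior (0.17 ± 0.16) were the only tissues with a positive value.

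In Deficient mice no tissue had a called difference in Cirbp between ZT17 and ZT05 by edgeR or by DESeq2. There 4 tissues had an unadjusted p under 0.05, 3 higher at ZT17 (lung, pituitary and spleen) and 1 lower (tibialis anterior), and the median log2 fold change was 0.03. The share of gene and tissue pairs called in Deficient mice was also lower than in Control mice, at 0.812% lower and 0.789% higher. Deficient liver had 9.33, 4.90 and 15.7 CPM in females at ZT17, against 8.59, 16.7 and 13.6 CPM at ZT05. Deficient kidney had 55.8, 30.4 and 85.5 CPM in females at ZT17, against 50.5, 98.2 and 83.9 CPM at ZT05. Both pairs overlapped, and the fitted log2 fold changes over both sexes were 0.06 ± 0.24 in liver and -0.04 ± 0.19 in kidney. In Control females all ZT17 libraries lay below all ZT05 libraries in 14 of 18 tissues, and in Deficient females they did so in 2 of 18. Such counts of separated groups, here and below, have no share over all genes beside them. The tissues also share mice, so these counts are descriptions only.

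Males of the Deficient group leaned the other way in some tissues. In 5 of 17 tissues all Deficient male libraries at ZT17 lay above all those at ZT05, and in 0 of 17 below, whereas Control males had 0 above and 5 below. Deficient male lung had 113, 130 and 86.7 CPM of Cirbp at ZT17, against 52.8, 83.9 and 51.5 CPM at ZT05. Deficient male pituitary had 142, 170 and 146 CPM at ZT17, against 79.3, 67.0 and 79.0 CPM at ZT05. Neither tissue passed the threshold when both sexes were fitted together (edgeR adjusted p = 0.434 and 0.313), and the difference between the sexes was not tested. Some separations were narrow: in Deficient male liver the lowest ZT17 value was 8.74 CPM and the highest ZT05 value 8.57 CPM. Other Deficient male tissues had a lower mean at ZT17, among them tibialis anterior (47.6 against 56.3 CPM) and soleus (90.6 against 95.7 CPM).

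Rbm3 also fell at ZT17 in Control mice, in 5 of 19 tissues, with 0 called higher and a median log2 fold change of -0.44. Of the genes tested in all tissues, 89 (0.806%) were called lower in 5 or more. Lung had the lowest called value. Control females had 57.1, 54.0 and 50.5 CPM of Rbm3 in lung at ZT17, against 179, 185 and 143 CPM at ZT05, and Control males had 68.8, 87.7 and 72.3 CPM, against 171, 181 and 172 CPM. The times did not overlap in either sex (log2 -1.42 ± 0.14, edgeR adjusted p = 6e-06).

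The adrenal gland differed by -1.16 ± 0.15 in Control mice (edgeR adjusted p = 0.000112). Control females had 48.5, 53.5 and 51.0 CPM at ZT17, against 111, 162 and 89.7 CPM at ZT05, and Control males had 63.5, 73.5 and 64.5 CPM, against 142, 140 and 143 CPM. Here too the libraries of the times stood apart in both sexes. Heart (-0.92 ± 0.15), brown adipose tissue (-0.93 ± 0.24) and kidney (-0.53 ± 0.12) completed the called tissues, with edgeR adjusted p of 0.00258, 0.00971 and 0.0067.

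The brown adipose value depended on males with little usable depth. Control males there had 4.62, 27.3 and 10.2 CPM of Rbm3 at ZT17 from 8, 33 and 17 counts, against 39.4, 44.6 and 39.1 CPM at ZT05, with mitochondrial and rRNA-like shares near 94.2% at ZT17 and 78.1% at ZT05 (medians). Control females had 22.4, 25.2 and 20.02 CPM at ZT17, against 26.3, 30.1 and 23.3 CPM at ZT05, which overlapped. Without libraries above 50% of such counts the difference was -0.25 (edgeR adjusted p = 0.388). With all libraries, 1084 genes were called higher and 1190 lower of 14250 in this tissue at ZT17 in Control mice. Of 4 endothelial markers, Kdr (-1.68) and Cdh5 (-1.20) fell in the same comparison and 0 rose, with list sums of 78.5 to 231 CPM at ZT17 and 196 to 316 CPM at ZT05. None of the 4 was at 0 in a brown adipose library, and the part of endothelium or depth in the Rbm3 value was not tested.

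**Figure D2:**
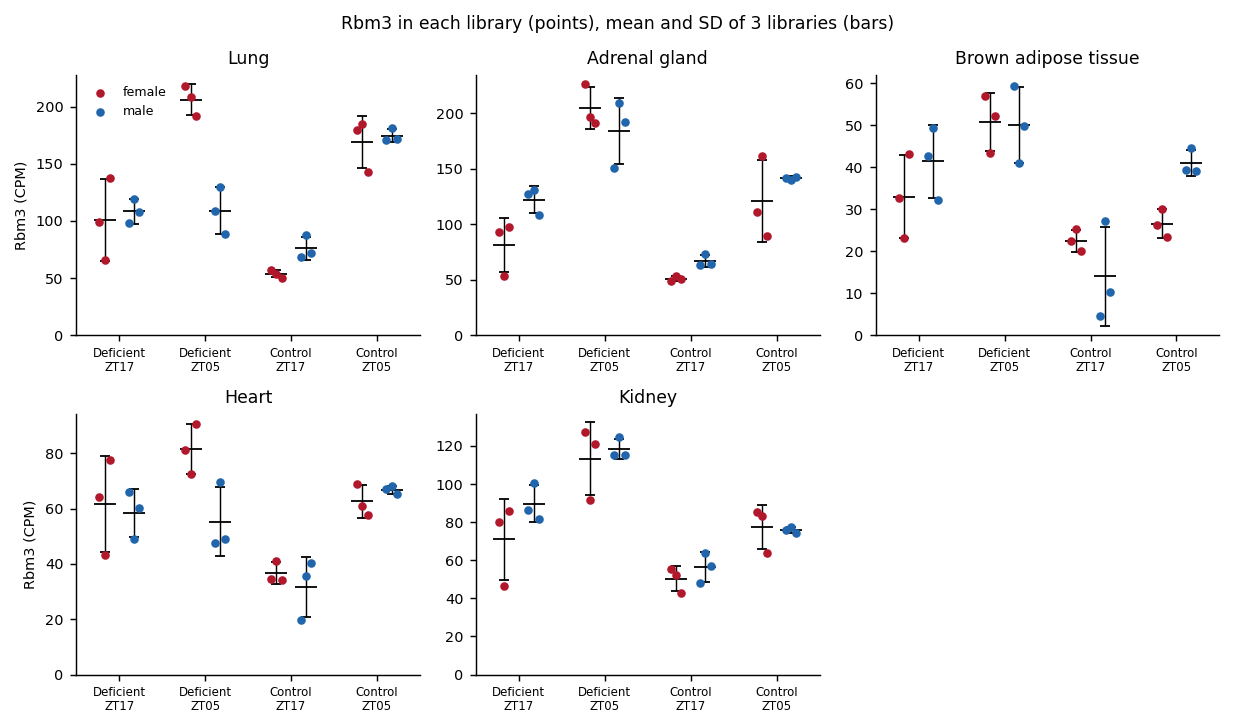
Rbm3 in the 5 tissues where it was called lower at ZT17 in Control mice, drawn as CPM per library for females (red) and males (blue) with the mean and SD of 3 libraries. In adrenal gland and kidney the ZT17 libraries lie below the ZT05 libraries of the same sex and treatment, and in lung the Control females lie between 50.5 and 57.1 CPM at ZT17.

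Unlike Cirbp, Rbm3 kept a called fall at ZT17 in 2 tissues of Deficient mice, the adrenal gland (-0.96 ± 0.14, edgeR adjusted p = 0.00143) and the kidney (-0.54 ± 0.12, adjusted p = 0.0106). Deficient adrenal glands had 93.3, 53.5 and 97.8 CPM of Rbm3 in females at ZT17, against 226, 197 and 191 CPM at ZT05, and 127, 131 and 108 CPM in males, against 151, 209 and 192 CPM. In the same glands Cirbp was at 129, 68.0 and 237 CPM in females at ZT17, against 109, 150 and 187 CPM at ZT05. Rbm3 thus separated the times in both sexes of Deficient adrenals while the Cirbp ranges overlapped in females. In Deficient males adrenal Cirbp separated the times in the opposite direction, with 118, 144 and 118 CPM at ZT17, against 66.2, 105 and 116 CPM at ZT05. Of the genes tested in all tissues, 396 (3.59%) were called lower in 2 or more tissues of Deficient mice. The difference between the genes was not tested. Deficient uterus (-1.12 ± 0.24) and ovary (-1.05 ± 0.18) had Rbm3 falls close in size to Control uterus (-1.13 ± 0.24) and ovary (-1.42 ± 0.18), none of them past the adjusted threshold, with edgeR adjusted p between 0.144 and 0.523.

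**Figure D3:**
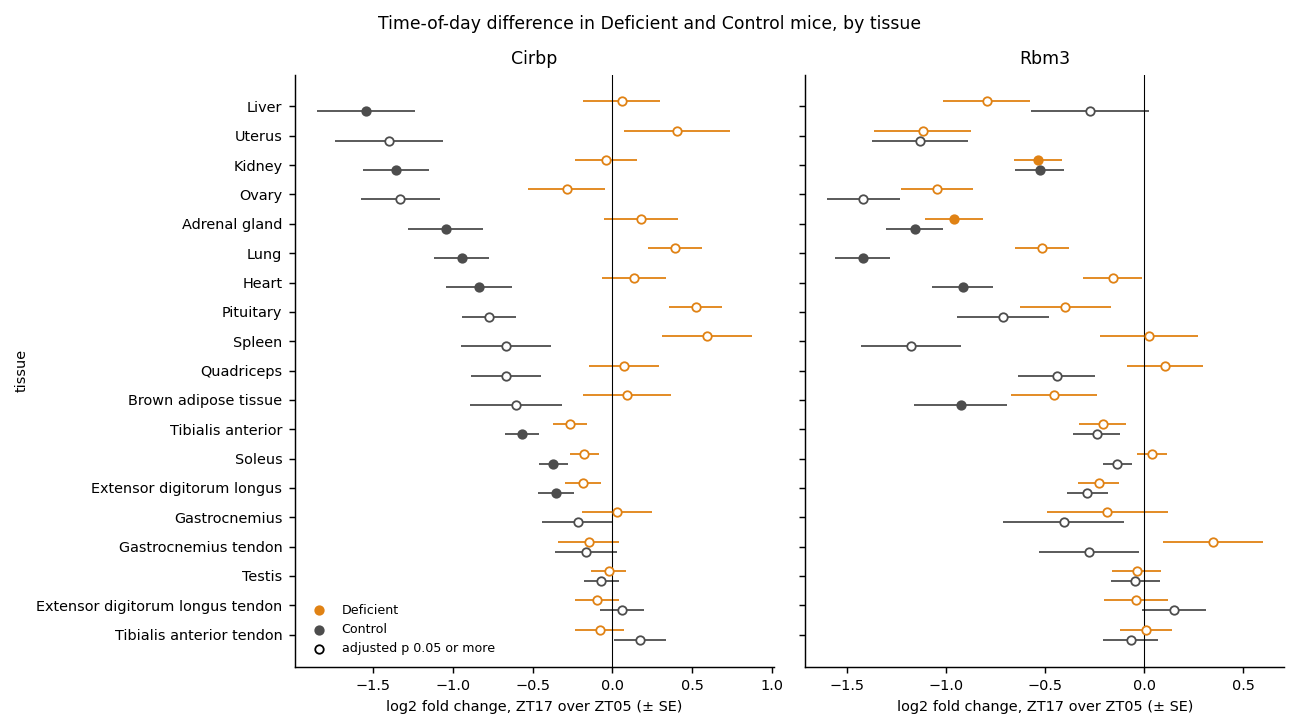
Log2 fold change of ZT17 over ZT05 with its SE, by tissue, in Deficient (orange) and Control (grey) mice, for Cirbp (left) and Rbm3 (right). Filled points passed the adjusted threshold of 0.05. The Cirbp points of Control mice reach -1.54 in liver, and those of Deficient mice stay between -0.29 and 0.60.

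Whether the Deficient minus Control difference changed with time was tested directly, as the log2 difference at ZT17 less that at ZT05. This test shares its Control libraries with the time comparison above, so the values are given side by side and are not a second line of evidence. For Cirbp it was called higher at ZT17 in 3 of 19 tissues, kidney (1.32 ± 0.28, edgeR adjusted p = 0.00951), liver (1.60 ± 0.40, adjusted p = 0.0213) and lung (1.34 ± 0.24, adjusted p = 0.0079), and lower in 0. The median over tissues was 0.74, with 17 of 19 tissues positive. Across all gene and tissue pairs 0.912% were called higher and 0.989% lower. Of the genes tested in all tissues, 42 (0.38%) were called higher in 3 or more. With the libraries numbered replicate 1 left out, the Cirbp value was 1.31 in kidney (edgeR adjusted p = 0.112), 1.19 in liver (adjusted p = 0.325) and 1.02 in lung (adjusted p = 0.0929), so none of the 3 calls held without them.

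For Rbm3 only lung was called (0.90 ± 0.19, edgeR adjusted p = 0.0152), and the median was 0.20. A call in 1 or more tissues was made for 17.5% of the genes tested in all tissues, so this count does not set Rbm3 apart. Pituitary Cirbp (1.30 ± 0.24) lay just beyond the threshold at adjusted p = 0.0508. Adrenal Cirbp (1.23 ± 0.33) had adjusted p = 0.0951 by edgeR.

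Set out at each time as a description, the Deficient against Control ratio of Cirbp was larger at ZT17. In females the ratio of mean CPM was above 1 in all 18 tissues at both times, with a median of 2.62 at ZT17 and 1.75 at ZT05. It reached 5.68 at ZT17. In males the medians were 1.78 at ZT17 and 1.10 at ZT05, and 7 of 17 tissues were below 1 at ZT05. Every Deficient library lay above every Control library in 15 of 18 female tissues at ZT17 and 13 at ZT05, and in 13 of 17 male tissues at ZT17 and 6 at ZT05. For Rbm3 the female medians were 1.49 at ZT17 and 1.43 at ZT05, and the male medians 1.44 and 1.21.

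Averaged over both times, Cirbp was past the threshold as higher in Deficient mice in 16 of 18 tissues of females and 5 of 17 of males. Rbm3 was so in 8 and 7. These counts come from the contrast that chose the genes, and nothing is read from them. The share of gene and tissue pairs called higher was 4.93% in females and 3.09% in males, and 5.29% and 3.16% were called lower. Female log2 values of Cirbp ran from 0.58 in the tendon of the extensor digitorum longus to 1.64 in liver. Male values ran from 0.07 in testis to 1.03 in the gastrocnemius tendon, whose libraries also held muscle RNA. Rbm3 ran from -0.12 in uterus to 0.88 in tibialis anterior in females, and from -0.43 in quadriceps to 1.02 in liver in males. The male liver value rests on 2 to 16 Rbm3 counts per Control library. Male quadriceps held mice of both cohorts at ZT17 and of the first cohort alone at ZT05. The part of depth or cohort in these values was not tested.

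**Figure D4:**
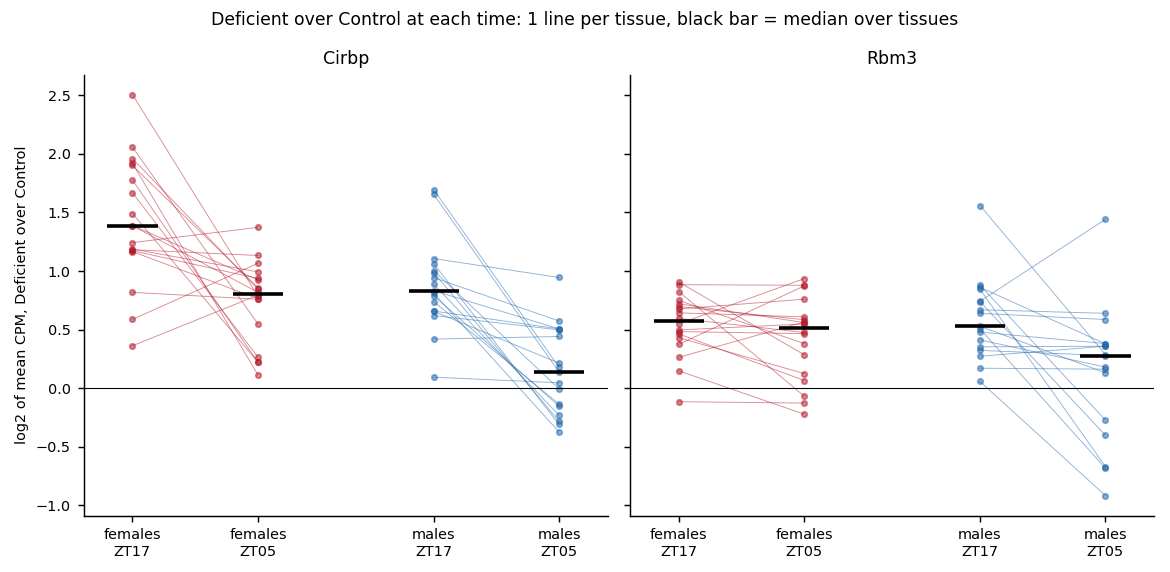
Log2 of the ratio of mean CPM, Deficient over Control, at ZT17 and ZT05, with 1 line per tissue for females (red) and males (blue) and a black bar at the median over tissues. For Cirbp most lines are higher at ZT17 than at ZT05 in both sexes; the female medians correspond to ratios of 2.62 and 1.75.

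Markers of other cells moved with the treatment. Blood genes, led by globin genes and Alas2, were called lower in Deficient mice in 41 of 74 female and 15 of 69 male pairs of gene and tissue. Over all pairs 5.29% were called lower in females and 3.16% in males. In spleen their sum was 82.3 to 1015 CPM in Deficient mice at ZT17, against 917 to 9253 CPM in Control mice at ZT17. Fibroblast and tendon genes such as Col1a1 were called lower in 40 of 81 female and 36 of 77 male pairs, beside the same 5.29% and 3.16%. Leukocyte markers were called lower in 9 and higher in 1 of 69 female pairs. In males they were lower in 6 and higher in 1 of 63 pairs, among them Cd79a (-2.38), Ptprc (-1.89) and Cd3e (-1.78), all lower in lung. The part of these cells in the treatment difference of Cirbp and Rbm3 was not tested. In the time comparison of Control mice, skeletal muscle and adipocyte lists had 0 called pairs of 78 and 70, beside 2.6% higher and 2.66% lower of all pairs. Beyond the lung and brown adipose calls given above, Tie1 rose in lung (0.98) and fell in tibialis anterior (-0.34), and Csf1r rose in brown adipose tissue (0.83). Hba-a1 rose in extensor digitorum longus (0.74), and Col3a1 fell in adrenal gland (-0.79). Their part in the Cirbp and Rbm3 values of those tissues was not tested.

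Because the tissues of a mouse share its physiology, the time comparison was repeated with the mouse as the unit. For each mouse the mean over tissues of centred log2(CPM + 0.5) was taken, and times were permuted within treatment in an exact two-sided permutation test over all 400 arrangements, whose smallest p is 0.005. The 6 tests of this kind were adjusted together. In females, over 18 tissues, Rbm3 was lower at ZT17 by a mean log2 difference of -0.58 (-0.53 in Deficient and -0.62 in Control mice; exact p = 0.005, adjusted 0.015). Cirbp in females differed by -0.53 (-0.22 in Deficient and -0.85 in Control mice; exact p = 0.03, adjusted 0.06), which did not pass after adjustment.

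Second-cohort males, over 6 tissues, repeated the Rbm3 result at -0.33 (-0.27 in Deficient and -0.39 in Control mice; exact p = 0.005, adjusted 0.015). Their Cirbp difference was -0.23 (0.06 in Deficient and -0.52 in Control mice; exact p = 0.12, adjusted 0.144). First-cohort males, over 5 tissues, gave -0.31 for Rbm3 (exact p = 0.05, adjusted 0.075). For Cirbp they gave 0.08 (exact p = 0.75, adjusted 0.75), the mean of 0.63 in Deficient and -0.46 in Control mice.

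Single mice stood out across their whole bodies. Among the Deficient females at ZT17, the mouse numbered replicate 2 had the lowest Cirbp of the 3 in 18 of 18 tissues and the lowest Rbm3 in 17 of 18. Its mean Cirbp was -0.10 on the centred log2 scale, against 0.57 and 0.76 in the other mice of its group, and its mean Rbm3 was -0.45, against 0.15 and 0.21. It remained above all Control females at ZT17 in Cirbp, which had -1.03, -0.85 and -0.96. Among Deficient females at ZT05, replicate 1 had the lowest Cirbp in 16 of 18 tissues and yet the highest Rbm3 in 12 of 18. Among first-cohort males, 1 Control mouse at ZT17 stood at -0.99 for Cirbp and -0.97 for Rbm3, against -0.25 and -0.03 for Cirbp and -0.15 and -0.18 for Rbm3 in its companions. What set these mice apart was not recorded in the labels and was not tested.

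**Figure D5:**
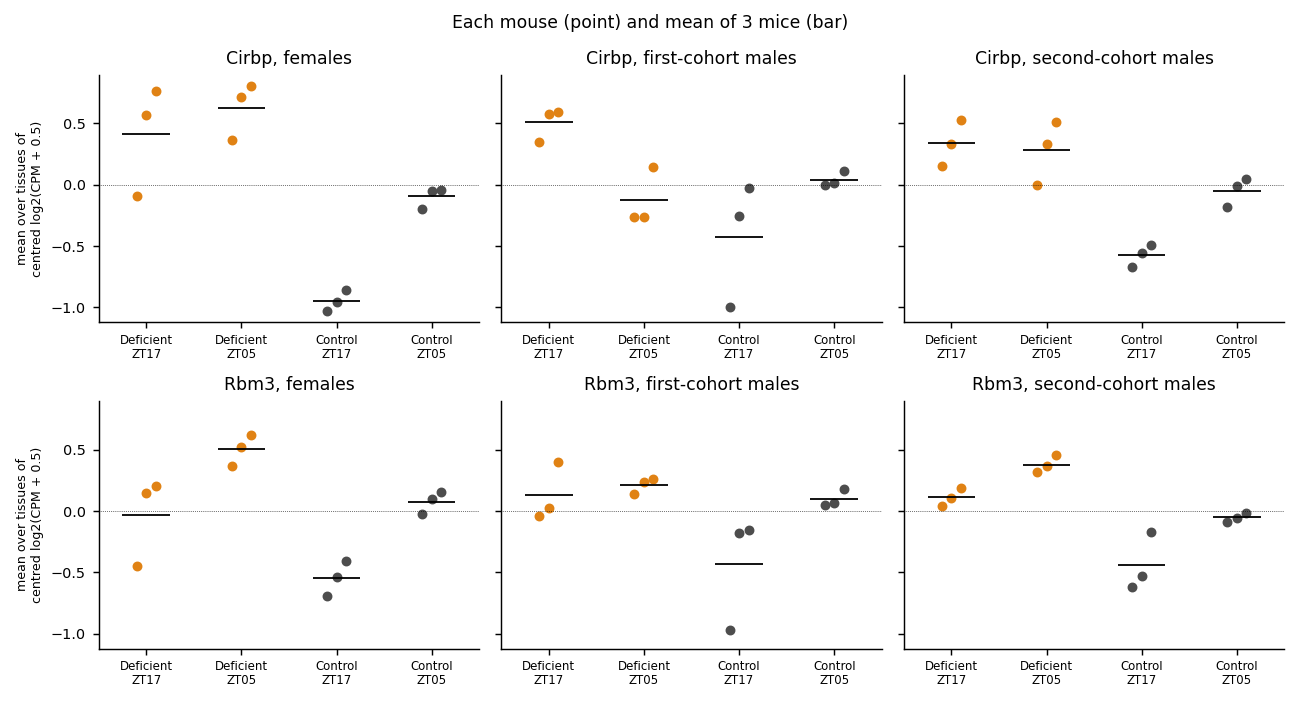
Mean over tissues of centred log2(CPM + 0.5) for each mouse (points) and the mean of 3 mice (bars), for Cirbp (top) and Rbm3 (bottom) in females, first-cohort males and second-cohort males. Control females at ZT17 lie together between -1.03 and -0.85 for Cirbp, and the Deficient females at ZT17 are spread from -0.10 to 0.76.

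Levels in Control mice were compared between tissues as CPM on library sizes scaled over all 419 libraries, which is a different scale from the within-tissue values above. The order of tissues depended on this scaling. Cirbp in Control females was highest in pituitary, at 62.4 ± 31.2 CPM (SD, n = 6 with both times pooled), and lowest in brown adipose tissue, at 17.1 ± 6.47 CPM. The tissues ranked 2 to 9, from soleus down to adrenal gland, lay between 47.3 and 38.9 CPM. Neighbours in this order differed by less than the larger SD in 17 of 17 cases. In Control males soleus was highest, at 59.6 ± 9.56 CPM, and liver lowest, at 14.4 ± 6.23 CPM. With totals that left out mitochondrial and rRNA-like genes, uterus (95.0 CPM) was highest and liver (14.3 CPM) lowest in females, and spleen (111 CPM) was highest in males, with soleus at rank 9 (63.9 CPM). On unscaled totals uterus (92.0 CPM) was highest in females and adrenal gland (97.5 CPM) in males, again with liver lowest in both sexes.

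Rbm3 was most abundant in spleen, at 187 ± 81.9 CPM in Control females and 197 ± 101 CPM in Control males, and spleen was highest and liver lowest in both sexes under all 3 scalings. Soleus followed in females at 138 ± 16.2 CPM, and liver was lowest at 42.0 ± 12.7 CPM. In males Rbm3 was low in testis, at 21.99 ± 1.53 CPM, where Cirbp stood at 55.3 ± 6.59 CPM. Male liver Rbm3 was at 9.51 ± 4.06 CPM, in the libraries with the high mitochondrial share. Per kilobase of annotated exons, Cirbp was 4.53 times Rbm3 in testis and 0.438 times Rbm3 in female spleen, with a median ratio of 0.742 over 18 female and 0.93 over 17 male tissues. The exon lengths used were 2604 bases for Cirbp and 4698 for Rbm3, the union over all annotated transcripts, so the ratio depends on which transcripts are present.

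The profiles of the pair over tissues were only loosely alike. Over the 19 tissues, the mean log2 levels of Cirbp and Rbm3 in Control libraries had Pearson r = 0.468, a description over points that share mice and scaling. The profile most like that of Cirbp among 10304 genes was Nup93, a nuclear pore gene (r = 0.895), followed by Mthfd2, Ilf2, Rnf219 and Txndc16. The profile most like that of Rbm3 was Setbp1 (r = 0.894), followed by Lsm14a, Zbtb2, Lsp1 and Tpt1-ps3. For the Deficient against Control log2 fold change over 35 pairs of tissue and sex, the genes most like Cirbp included Inpp5k (r = 0.777) and Nr1d1 (0.716), which encodes the circadian repressor REV-ERBα. Those most like Rbm3 were Rnf4 (r = 0.795) and Brd2 (0.708), and Cirbp and Rbm3 themselves had r = 0.287.

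The heat-inducible genes, 18 chaperones, co-chaperones and their regulator Hsf1, moved opposite to the pair in the time comparison of Control mice. Of 341 pairs of gene and tissue, 112 were called higher at ZT17 and 0 lower, beside 2.6% and 2.66% of all pairs, with a median log2 fold change of 0.49 against -0.00 over all pairs of genes and tissues. The small chaperone gene Hspb1 rose most in liver (3.37 ± 0.49, edgeR adjusted p = 6.27e-05), the tissue with the largest called fall of Cirbp. The HSP70 gene Hspa1a rose in quadriceps (3.19 ± 0.58, adjusted p = 0.00812) and brown adipose tissue (3.23 ± 0.92, adjusted p = 0.019). The brown adipose value carries the male depth limit given for Rbm3 there. Hsp90aa1, the inducible HSP90 gene, was called in 11 of 19 tissues with a median of 0.93. Of the genes tested in all tissues, 3 (0.0272%) were called higher in 11 or more.

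In Deficient mice the same list had 4 pairs higher and 6 lower at ZT17, beside 0.789% and 0.812% of all pairs, with a median of 0.01. Against Control, Deficient mice had 3 pairs called higher and 54 lower of 323 in females, beside 4.93% and 5.29% of all pairs, and 0 higher and 15 lower of 305 in males, beside 3.09% and 3.16%. The response of the list was lower at ZT17 than at ZT05 in 54 of 341 pairs and higher in 1, beside 0.989% and 0.912% of all pairs, with a median of -0.52 against 0.01 over all pairs. Per mouse, the mean of the 18 genes over the female tissues was -0.22 to 0.06 on the centred log2 scale in Deficient mice at ZT17, against 0.45 to 0.60 in Control mice at ZT17. The Deficient female with the low Cirbp and Rbm3 at ZT17 had -0.02, between the 0.06 and -0.22 of the other mice of its group. These lists were chosen with results of these data known, and their link to the pair was not tested.

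Factors reported to act on temperature-dependent expression or splicing had calls in both directions between the times. Of 268 pairs, 16 were called higher and 15 lower at ZT17 in Control mice, beside 2.6% and 2.66% of all pairs, with a median of 0.02. The CLK kinase gene Clk1, whose product phosphorylates SR proteins, fell in liver (-1.24 ± 0.25, edgeR adjusted p = 0.00211) and brown adipose tissue (-0.84 ± 0.27, adjusted p = 0.0346). Its relative Clk2 rose in brown adipose tissue (0.88 ± 0.18, adjusted p = 0.00172), and Trpv4, a warmth-sensitive channel gene, rose in lung (0.82 ± 0.18, adjusted p = 0.00628). In brown adipose tissue 1084 genes were called higher and 1190 lower of 14250, with the male depth limit given for Rbm3 there. In Deficient mice 3 pairs were higher and 3 lower, beside 0.789% and 0.812% of all pairs. Against Control, Deficient mice had 22 pairs called higher and 1 lower of 254 in females, beside 4.93% and 5.29% of all pairs, and 19 higher and 2 lower of 239 in males, beside 3.09% and 3.16%. The change of the response with time was called higher in 5 pairs and lower in 7, beside 0.912% and 0.989% of all pairs.

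Among reported RNA targets and receptors of extracellular CIRBP, 5 of 98 pairs were higher and 1 lower at ZT17 in Control mice, beside 2.6% and 2.66% of all pairs. In Deficient mice 6 were higher and 0 lower, beside 0.789% and 0.812%. Clock, whose transcript CIRBP binds, was higher at ZT17 in liver of Deficient mice (1.03 ± 0.20, edgeR adjusted p = 0.00833) and of Control mice (1.03 ± 0.22, adjusted p = 0.00369), while hepatic Cirbp differed with time in Control mice and not detectably in Deficient mice. In brown adipose tissue Clock went the other way in Control mice (-0.62 ± 0.17, adjusted p = 0.0164), the single lower pair, and its change of response there was 1.27 ± 0.24 (adjusted p = 0.00109). For that change 1150 genes were called higher and 914 lower of 14250 in this tissue, and the male depth limit given for Rbm3 applies. Tlr4, a receptor for extracellular CIRBP, rose in soleus of Control mice (1.12 ± 0.19, adjusted p = 0.000293). Against Control, Deficient mice had 2 pairs higher and 6 lower of 93 in females, beside 4.93% and 5.29% of all pairs. In males 2 were higher and 3 lower of 88, beside 3.09% and 3.16%. The sequence relatives Rbmx, Rbmxl1 and Rbmxl2 had 1 pair higher and 1 lower of 39 in Control mice, beside 2.6% and 2.66% of all pairs. Both were Rbmx, which rose in soleus (0.48 ± 0.09) and fell in kidney (-0.33 ± 0.09). Rbmx and Rbmxl1 passed the expression filter in all 19 tissues, and Rbmxl2 in 1.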

How the data were processed

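Per the labels' protocols, TRIzol was used for extraction, and TruSeq Stranded mRNA libraries were made from 500 ng of RNA. The submitters' processing notes name FastQC 0.11.9, cutadapt 4.1, STAR 2.7.10a, DESeq2 1.34.0 and GRCm38 (mm10); the counting tool, its strand setting and the annotation release are not given in the sources used here. The authors deposited raw counts per gene as whole numbers whose totals differed between libraries. Their second table held the same counts times 1 constant per library and was not used. Counts columns were joined to samples by the names in the labels, with 0 columns left over.

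Cirbp and Rbm3, the gene lists and the naming rule (at most 4 called list members of largest change per comparison, and the 5 most alike genes, of which 1 is not reported here) were chosen with earlier results of these data known. The single mice named, the further list values and the alternative without 1 mouse were chosen after their values were seen. Quasi-likelihood models were fitted tissue by tissue (edgeR 4.0.16, R 4.3.3): groups of sex, treatment and time, default filter (minimum count 10, total 15), TMM scaling, quasi-likelihood F tests and Benjamini-Hochberg adjustment over 13406 to 20816 genes. Time contrasts were averaged over the sexes present. P-values measure the spread between libraries of different mice, which the animal numbers in the labels tell apart. Gene positions and exon lengths come from GENCODE M21 (GRCm38). The fit was tested on simulated data. Alternatives used DESeq2 1.42.0, other scalings and filters, a replicate block, a cohort term, each sex alone and fewer libraries. Replicate numbers did not pair libraries: same-numbered residuals within a tissue had mean correlations of -0.034 to 0.0755.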

Additional observations from a re-analysis of the deposited data

Results flagged for a closer look

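The treatment difference changed with sampling time, by the test of the change itself (edgeR, log2 difference at ZT17 less that at ZT05), in 4 cases. Cirbp was flagged in kidney with 1.32, in liver with 1.60 and in lung with 1.34 on the log2 scale. Rbm3 was flagged in lung with 0.90. In all 4 the log2 difference, Deficient minus Control, was higher at ZT17 than at ZT05. In lung of males it was not an excess at both times: at ZT05 mean Rbm3 was 109 CPM in Deficient males and 175 CPM in Control males. Mean Cirbp at ZT05 was 62.8 CPM in Deficient males and 73.7 CPM in Control males. Averaged over both times, the leukocyte markers Cd79a, Ptprc and Cd3e were also called lower in lung of Deficient males. The part of leukocytes in these lung values was not tested. Lung of females had higher means in Deficient mice at both times. Mean Rbm3 in Deficient against Control females was 206 against 169 CPM at ZT05 and 101 against 53.9 CPM at ZT17. Mean Cirbp was 97.1 against 83.3 CPM at ZT05 and 95.6 against 27.9 CPM at ZT17.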

How the results depend on the processing

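The 19 single-tissue time calls kept their direction and threshold under DESeq2, other scalings and filters and the replicate block. Females alone lost 11 and males alone 15; leaving out replicate 1, 2 or 3 lost 14, 3 and 11. Cirbp in Control mice was called in 2 tissues with males alone and in 4 to 6 with a replicate left out, against 8. Its change of response with time was called in 5 tissues by DESeq2, 6 with no low-count filter, 1 in females alone, 0 in males alone and 0 to 4 with a replicate left out, against 3; it was called in 5 without female Deficient ZT17 replicate 2, an alternative chosen after seeing the data, under which Rbm3 kept 5, 2 and 1 and Cirbp passed the treatment threshold in 17 female tissues. Rbm3 in Control mice was called in 8 tissues by DESeq2, 2 in females alone, 2 in males alone and 2 to 6 with a replicate left out, against 5. In Deficient mice it was called in 6 by DESeq2, 0 in males alone and 0 to 1 with a replicate left out, against 2. Its change of response with time was called in 2 by DESeq2, 3 with no filter, 0 in either sex alone and 0 to 1 with a replicate left out, against 1. The treatment contrast chose the genes, so its counts in this section are descriptions and no robustness is read from them. With a replicate left out, Cirbp was past the threshold in the treatment difference in 7 to 9 female tissues (against 16). Rbm3 was so in 1 to 7 female tissues (against 8) and 2 to 4 male tissues (against 7). Fewer libraries entered these fits; the cause of the other changes was not tested.

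With the replicate block, Cirbp was called in 8 tissues of Control mice, 0 of Deficient mice and 4 for the change of response, and past the threshold in 16 female and 6 male tissues; Rbm3 gave 5, 2, 1, 8 and 6. Per mouse, Cirbp in first-cohort males ranged from -0.021 to 0.19 with a replicate left out and reversed at -0.021 without replicate 3. Rbm3 ranged from -0.66 to -0.52 in females and from -0.40 to -0.28 in second-cohort males, where fewer mice cannot reach an adjusted p under 0.05. Male liver and brown adipose libraries were limited by depth outside mitochondrial and rRNA-like genes.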
